A study of Mus musculus with 2 samples.

Results

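The TNF ligand and receptor superfamilies were followed in mouse macrophages through every gene whose symbol begins with Tnfsf or Tnfrsf, except 1 receptor that is not reported here, together with Tnf, Lta, Ltb, Ltbr, Fasl, Cd40, Cd40lg, Cd27, Cd70 and Ngfr. The gene table listed 42 such symbols, of which 40 had a named probe on the array, among 22910 named genes in all. Tnfsf13 and Tnfsf13os had no named probe and were not analysed here. The members were 17 ligands and 23 receptors. The rule takes genes by name, although it was set with earlier results of these data known.

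The study compared primary macrophages, adherent cells grown from bone marrow and collected at day 5, with self-renewing macrophages, which keep proliferating in long-term culture of such marrow and were collected at passage 4. The labels give male C57BL/6 mice for both. Both received 100 ng/ml of recombinant human macrophage colony-stimulating factor (M-CSF), the cytokine on which macrophages depend, and neither was modified genetically. The self-renewing cells came from bulk culture, not from 1 clone. RNA of each cell type was hybridised to 1 Agilent 1-colour array on a shared slide, so that no difference has a replicate check and no test was made.

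A gene is called detected where the scanner software marked a probe of it as well above background. Of 10 macrophage markers fixed in a list, 10 were detected on both arrays, with a summed intensity of 409000 in the primary and 552000 in the self-renewing macrophages. Mertk was 4.68-fold higher in the latter and Fcgr1 3.39-fold lower, while the other 8 lay within 2-fold. Although both samples are labelled male, 0 of 6 Y-linked genes were detected in primary and 4 in self-renewing macrophages, and Xist was detected in the former only. Expression of sex-linked genes thus went against the label of the primary sample, and for every value below the sex of the donors and the cell type cannot be told apart. Of 56598 probes, 34808 were detected in the primary and 33095 in the self-renewing macrophages, and 0 spots were saturated. Neutrophil markers fell in sum from an intensity of 51200 to 2920 and those of megakaryocytes and erythroid cells from 113000 to 24600, while the sums for B cells (16100 and 29400), T and NK cells (6710 and 5960) and dendritic cells (97000 and 99900) each moved in their own way. Some sums rested mostly on 1 gene. Pf4 had 111000 and 24200 among megakaryocyte and erythroid markers, and Siglech 83900 and 92000 among dendritic markers. Of 9 megakaryocyte and erythroid markers detected, 4 were at least 2-fold lower (44.4%, beside 8.38% of all genes detected). Besides Pf4 these were Ppbp (at least 69-fold), Gp9 (at least 4.42-fold) and Hba-a1 (3.29-fold). Klf1 (0.02), Gp1bb (-0.26) and Epor (-0.47) lay within 2-fold on both arrays, and Itga2b and Gata1 had only bounds. Of 8 neutrophil markers detected, 6 were at least 2-fold lower (75%), but Elane gave -0.47 and Cxcr2 was at least 1.39-fold higher. Such sums therefore do not stand for a whole cell type. The part of other cell types in the values that follow was not tested, and in bulk RNA fewer cells of a type cannot be told apart from less RNA per cell.

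TNF superfamily ligands are mostly trimeric proteins made as transmembrane precursors, which act on neighbouring cells or are cut from the surface and act at a distance. Their receptors either bind TRAF adaptors and switch on NF-κB and MAP kinases, or carry a death domain that can also recruit caspases, and a few act as decoys without signalling themselves. Macrophages are a classical source of TNF, and their fusion into bone-resorbing osteoclasts is driven by RANK ligand acting on RANK.

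The promoters of 5 genes are shown, each as the 250 bases before the annotated start, on the strand of the gene, from RefSeq with the GRCm38.p6 build. The first 4 belong to ligands with a higher signal in the self-renewing macrophages and the last to a receptor with a lower signal. Capitals mark matches, on either strand, to AP-1 (TGANTCA), PU.1 (GAGGAA) and the TATA box (TATAAA); the NF-κB consensus was searched too, and no match to another motif overlaps those shown.
Tnfsf8, chr4:63861285-63861534, minus strand: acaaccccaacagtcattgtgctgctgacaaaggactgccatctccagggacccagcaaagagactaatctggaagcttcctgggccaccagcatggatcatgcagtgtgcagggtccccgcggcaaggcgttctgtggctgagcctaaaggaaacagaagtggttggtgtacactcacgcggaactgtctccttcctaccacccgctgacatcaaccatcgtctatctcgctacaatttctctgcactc
Tnfsf15, chr4:63745060-63745309, minus strand: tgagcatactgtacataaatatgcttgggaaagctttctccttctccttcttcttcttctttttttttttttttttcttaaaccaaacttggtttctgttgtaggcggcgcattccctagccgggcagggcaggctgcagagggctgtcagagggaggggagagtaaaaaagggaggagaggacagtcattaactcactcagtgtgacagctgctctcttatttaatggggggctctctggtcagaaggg
Tnf, chr17:35202008-35202257, minus strand: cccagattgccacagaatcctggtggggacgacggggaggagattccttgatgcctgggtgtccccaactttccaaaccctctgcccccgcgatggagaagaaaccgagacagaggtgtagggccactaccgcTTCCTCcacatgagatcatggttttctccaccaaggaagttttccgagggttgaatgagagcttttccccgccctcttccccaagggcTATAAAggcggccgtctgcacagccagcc
Tnfsf13b, chr8:10006383-10006632, plus strand: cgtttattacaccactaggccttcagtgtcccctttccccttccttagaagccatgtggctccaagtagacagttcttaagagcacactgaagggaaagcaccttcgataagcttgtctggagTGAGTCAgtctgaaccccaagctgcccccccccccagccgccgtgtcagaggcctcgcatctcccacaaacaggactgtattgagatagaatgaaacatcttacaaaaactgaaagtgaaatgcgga
Tnfrsf21, chr17:43016305-43016554, plus strand: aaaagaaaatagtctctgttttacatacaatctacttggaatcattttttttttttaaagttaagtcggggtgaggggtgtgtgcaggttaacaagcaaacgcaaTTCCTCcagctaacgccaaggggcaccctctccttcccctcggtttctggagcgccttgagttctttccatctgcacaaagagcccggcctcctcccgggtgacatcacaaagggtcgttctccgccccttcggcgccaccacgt

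Tnfsf8 and Tnfsf15 had no match to any of the 4 motifs in this window, whereas Tnf had a TATA box that began at position -29 from the start and a PU.1 match that began at -117. Tnfsf13b has another annotated start with no match, and the start shown had an AP-1 match that began at -127. Promoters were found for 31 of the 40 members, 35 promoters in all. Of these, 3 held the NF-κB consensus, 4 AP-1, 12 PU.1 and 6 the TATA box, where 3.9%, 6.75%, 23.3% and 12.4% of all 32851 promoters did. A match is a run of letters and not a site shown to be bound.

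Signals are given as the processed intensity of the primary and then of the self-renewing array. Differences are on the log2 scale, self-renewing minus primary, after each array was set to its 75th percentile, and levels of different genes are not compared because probes differ in efficiency. Where a gene was detected in 1 cell type, its difference is a bound, written as at least N-fold. The error given by the scanner software on a member's difference had a median of 0.21, probes for the same gene differed by an SD of 0.32 over 5077 genes, and neither covers the spread between cultures.

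Of the 40 members, 30 (75%) were detected in at least 1 cell type, beside 67.7% of all named genes. For 7 members the self-renewing signal was higher by at least 2-fold (23.3% of the 30, beside 4.76% of 15516 genes), and that of 5 was at least 2-fold lower (16.7% beside 8.38%). Past 5-fold were 2 members upwards, where the share over all genes was 1.02%, and 1 member downwards, where it was 2.93%. Of the other members, 17 were measured on both arrays and lay within 2-fold, and Tnfrsf13c had only a bound. Over the 26 members measured on both arrays the median difference was 0.10, with 14 above and 12 below 0, beside a median of 0.01 over 14003 genes. All 7 members that were higher were ligands (58.3% of 12 measured), and 4 of the 5 that were lower were receptors (22.2% of 18). That split holds for the genes taken by the rule: outside it, the receptors Eda2r (at least 17.4-fold) and Fas (2.53-fold) were higher too, 2 of 3 such genes detected. The difference between ligands and receptors was not tested. The median was 1.33 over 10 ligands and -0.05 over 16 receptors on both arrays, of which 7 were above and 9 below 0. With the authors' own scaling, which shifted the median over all genes to 0.19, the receptors' median was 0.14, above 0 but below that of all genes. Under quantile normalization 7 members were higher and 3 lower, beside 5.32% and 7.74% of all genes.

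**Figure D1:**
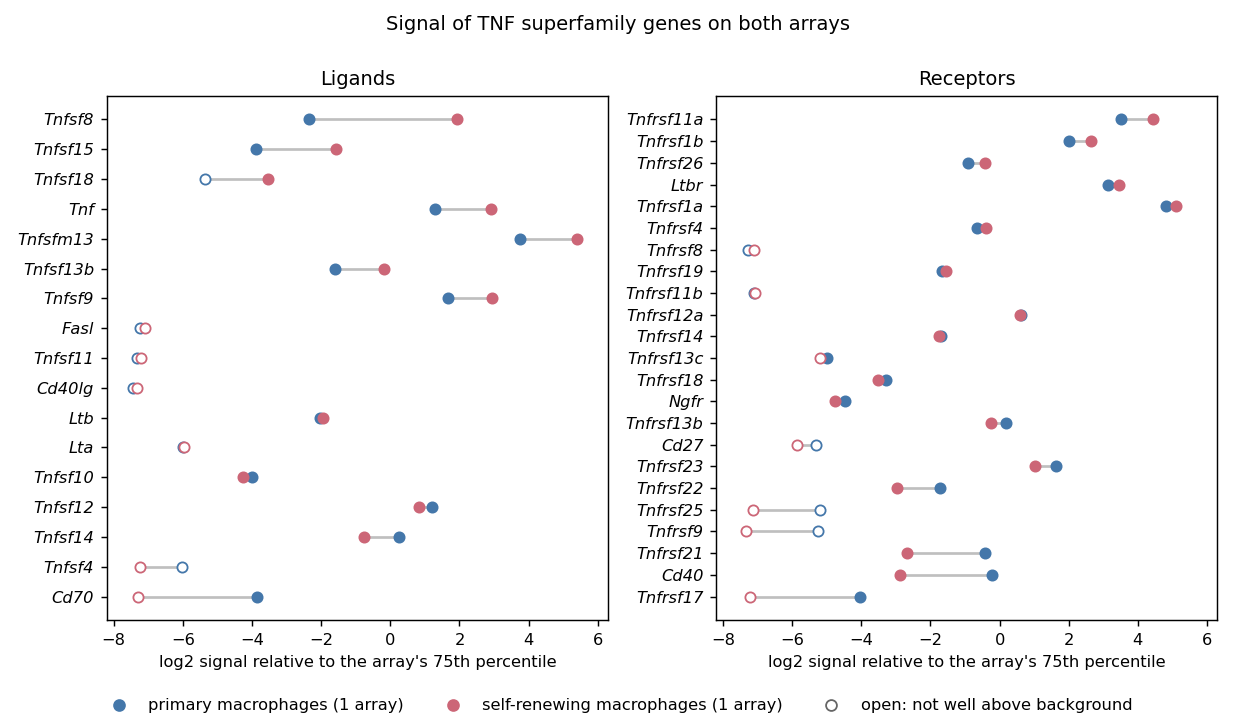
Signal of the 17 ligands and 23 receptors on the 2 arrays (x axis, log2 intensity relative to the array's 75th percentile), 1 point for each array and open points where the probe was not well above background. In the ligand panel 6 genes measured on both arrays lie at least 2-fold to the right in self-renewing macrophages, and in the receptor panel Cd40 and Tnfrsf21 lie furthest to the left of their primary value among genes measured on both.

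Among the ligands, Tnfsf8, which encodes CD30 ligand, had the largest difference. Its intensity was 84.7 in the primary and 1680 in the self-renewing macrophages, a difference of 4.27 ± 0.21 (scanner error) or 19.3-fold. Its receptor Tnfrsf8 (CD30) was not detected on either array. Tnfsf15, which encodes TL1A, a costimulator of T cells, had an intensity of 29.1 and 150, a difference of 2.33 ± 0.24 or 5.02-fold. The other probe for Tnfsf15 gave 1.59, normexp background correction 1.14, the mean over both probes 1.96, and centring on detected probes 2.31, all short of the 5-fold mark. The receptor of TL1A, Tnfrsf25, was not detected on either array. These were the 2 members past 5-fold upwards, and both were detected on both arrays without their receptor. T cells and NK cells can also make such ligands, and of 12 markers of those cells 9 were detected in the primary and 7 in the self-renewing macrophages, with Cd3g, Cd8a and Ncr1 not detected in either. Those detected on both arrays lay between -0.43 (Cd28) and 0.27 (Cd3d), with Cd3e at 1020 and 1010 and Cd4 at 2420 and 2390.

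Tnf itself, the founding cytokine of the family, had an intensity of 1050 and 3390, a difference of 1.65 ± 0.20 or 3.13-fold, and its other probe gave 1.12. Both receptors of TNF had strong signals with smaller differences. Tnfrsf1a (TNFR1), the death-domain receptor found on most cells, had an intensity of 12200 and 15300, a difference of 0.29 with 0.33 at the other probe. Tnfrsf1b (TNFR2), which binds TRAF2 and is prominent on immune cells, had an intensity of 1750 and 2780, a difference of 0.63.

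Tnfsfm13 is the read-through transcript of Tnfsf12 and Tnfsf13, the genes of TWEAK and APRIL. Its probe had an intensity of 5850 and 18700, a difference of 1.63 ± 0.20 or 3.11-fold. Whether this probe also measured Tnfsf13 or Tnfsf12 was not tested. Tnfsf12 has a probe of its own, whose intensity was 993 and 786, a difference of -0.38, and the receptor of TWEAK, Tnfrsf12a (Fn14), was nearly level with 672 and 669. The values of the read-through probe and of the Tnfsf12 probe had opposite signs, and how far they share transcripts is not known here.

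Tnfsf13b, which encodes BAFF, the survival factor of B cells, had an intensity of 144 and 392, a difference of 1.41 ± 0.21 or 2.65-fold. Of its 3 receptors, 0 were 2-fold higher. Tnfrsf13b (TACI) had 493 and 373, a difference of -0.44 with -0.54 at its other probe. Tnfrsf17 (BCMA) was detected in primary macrophages only, with intensities of 26.6 and 2.97, and was at least 2.08-fold lower. Tnfrsf13c (BAFF receptor) was also detected in primary macrophages only, at 13.6 and 12.2, with a bound of 1.07-fold. Both of the last 2 genes were dim, and with normexp the difference of Tnfrsf17 was -0.43. Among the B cell markers, 7 of 9 were detected in the primary and 4 in the self-renewing macrophages, and Cd79b, a chain of the B cell receptor complex, was at least 54.4-fold lower in the latter. Ms4a1 and Ebf1 were not detected on either array, whereas Pax5 (-0.03), Cd22 (-0.02), Cd79a (0.41) and Blnk (0.92) were detected on both. Blnk, which macrophages also express, rose in intensity from 14700 to 28600 and made up most of the summed level.

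Tnfsf9, which encodes 4-1BB ligand, had an intensity of 1390 and 3430, a difference of 1.26 ± 0.20 or 2.40-fold, and its receptor Tnfrsf9 (4-1BB) was not detected on either array. Tnfsf18, which encodes GITR ligand, was detected in self-renewing macrophages only, with 10.5 and 38.3, and was at least 3.15-fold higher. It was dim, and normexp gave 0.43. GITR itself, Tnfrsf18, was measured on both arrays at 44.5 and 39.2, a difference of -0.22. Of the 7 higher ligands, 6 were measured on both arrays, and those 6 stayed past 2-fold under every normalization tried. Because they were detected on both arrays, the filters could not change their values. The choice of probe could change only Tnf and Tnfsf15, which stayed past 2-fold, since the others had 1 probe each.

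The remaining ligands were lower or level. Cd70, the ligand of CD27 on lymphocytes, was detected in primary macrophages only, at 29.9 and 2.82, and was at least 2.34-fold lower. With normexp its difference was -0.33. Tnfsf14 (LIGHT), which acts through the lymphotoxin β receptor and HVEM, had 513 and 266, a difference of -0.99 ± 0.21, just inside the 2-fold mark. Tnfsf10 (TRAIL) had 26.9 and 23.4, a difference of -0.24, and Ltb (lymphotoxin β) had 106 and 115, a difference of 0.08. Cd40lg, Fasl, Lta, Tnfsf4 and Tnfsf11 (RANK ligand) were not detected on either array.

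**Figure D2:**
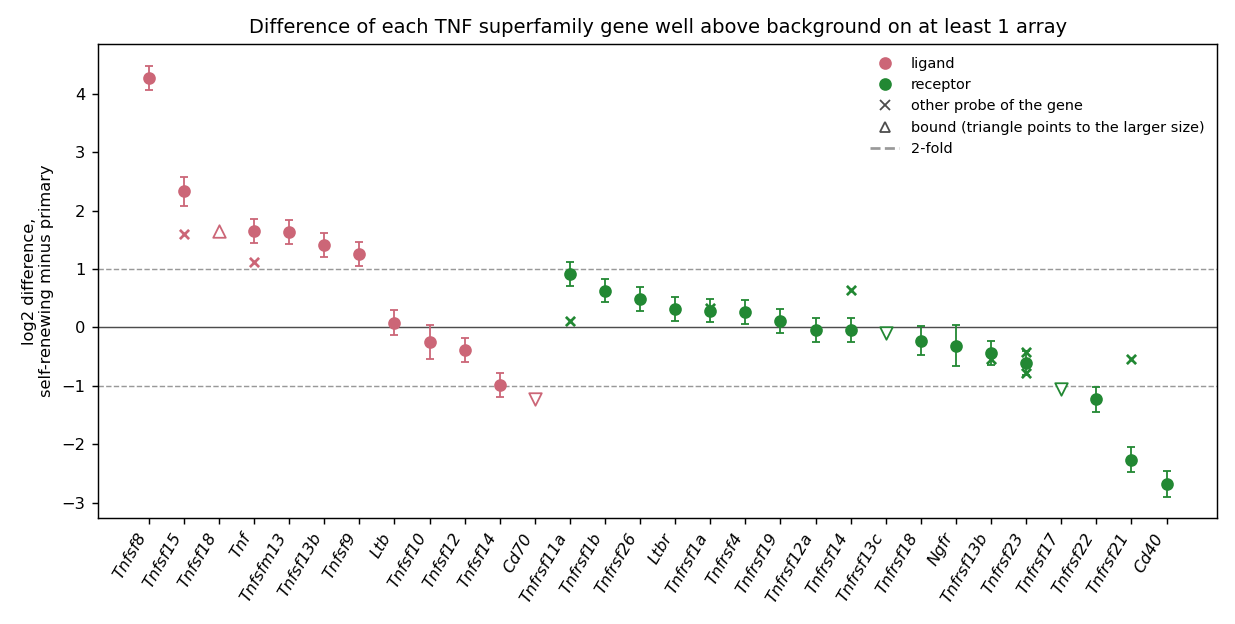
Log2 difference (y axis, self-renewing minus primary) of the 30 members detected in at least 1 cell type, ligands then receptors, with the scanner error as bars, crosses for other probes of a gene and open triangles for bounds. Tnfsf8 stands highest at 4.27, 7 ligands and 0 receptors lie above the upper 2-fold line, and Cd40 lies lowest at -2.67.

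Among receptors that bind TRAFs without a death domain, 12 of 15 were measured. Of these, 0 were 2-fold higher (beside 4.76% of all genes) and 2 were lower (16.7% beside 8.38%). Cd40, the receptor by which T cells activate macrophages and B cells, had an intensity of 372 and 60, a difference of -2.67 ± 0.22 or 6.38-fold lower, and -1.80 with normexp. Its ligand was not detected. Dendritic cells express Cd40 as well, and of 10 dendritic markers 8 were detected in the primary and 5 in the self-renewing macrophages. Of these, Itgax was 8.93-fold lower (at least 3.22-fold at its other probe), Ccr7 at least 17.7-fold (at least 2.57-fold at its other probe) and Batf3 3.45-fold. Zbtb46 (0.62), Siglech (0.09) and Irf8 (-0.07) lay within 2-fold on both arrays, and Xcr1 and Clec9a were not detected on either. Tnfrsf11a, which encodes RANK, had 4990 and 9660, a difference of 0.91 ± 0.20, but its other probe gave 0.11. With the authors' scaling it was the 1 receptor at least 2-fold higher, at 1.1. Ltbr (lymphotoxin β receptor) had 3790 and 4870, a difference of 0.32, and Tnfrsf4 (OX40) had 274 and 340, a difference of 0.27. Tnfrsf14 (HVEM) gave -0.05 at its brighter probe and 0.65 at the other, and Tnfrsf19 (TROY) gave 0.11. Cd27, Tnfrsf8 and Tnfrsf9 were not detected on either array.

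Among the 4 death-domain receptors, Tnfrsf21 (DR6) had an intensity of 322 and 69.1, a difference of -2.26 ± 0.21 or 4.79-fold lower. The other probe for Tnfrsf21 gave -0.54, the widest disagreement among the 8 members with several probes on both arrays, and the call at 2-fold rests on the brighter probe. Tnfrsf1a lay within 2-fold, as above. Ngfr, the p75 neurotrophin receptor, was dim at 19.7 and 16.3, a difference of -0.31 ± 0.35 that turned to 0.01 with normexp. Of the death-domain receptors, Tnfrsf25 alone was not well above background.

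The decoy-like receptors Tnfrsf26, Tnfrsf22 and Tnfrsf23 lie in a row on chromosome 7, and their signals moved differently. Tnfrsf22, a decoy for TRAIL in the mouse, had 130 and 57.1, a difference of -1.23 ± 0.22 or 2.35-fold lower, and -0.70 with normexp. Tnfrsf23, also a TRAIL decoy, had 1350 and 907, a difference of -0.61, with its 3 probes between -0.78 and -0.43. Tnfrsf26 had 231 and 332, a difference of 0.48. Tnfrsf11b (osteoprotegerin), the soluble decoy for RANK ligand, was not detected on either array.

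In all, 24 ligand-receptor pairs had been fixed, of which 22 had both genes on the array. Both partners were well above background in 9 pairs on the primary and in 8 pairs on the self-renewing array. In 6 of the 10 pairs with both partners detected in some cell type the ligand was at least 2-fold higher, in 4 of them with the receptor measured on both arrays and within 2-fold, and in 0 pairs was the receptor 2-fold higher. In the other 2, Tnfsf13b with Tnfrsf17 and with Tnfrsf13c, the receptor had only a bound on the lower side. The pairs share genes, and mRNA does not show surface protein.

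**Figure D3:**
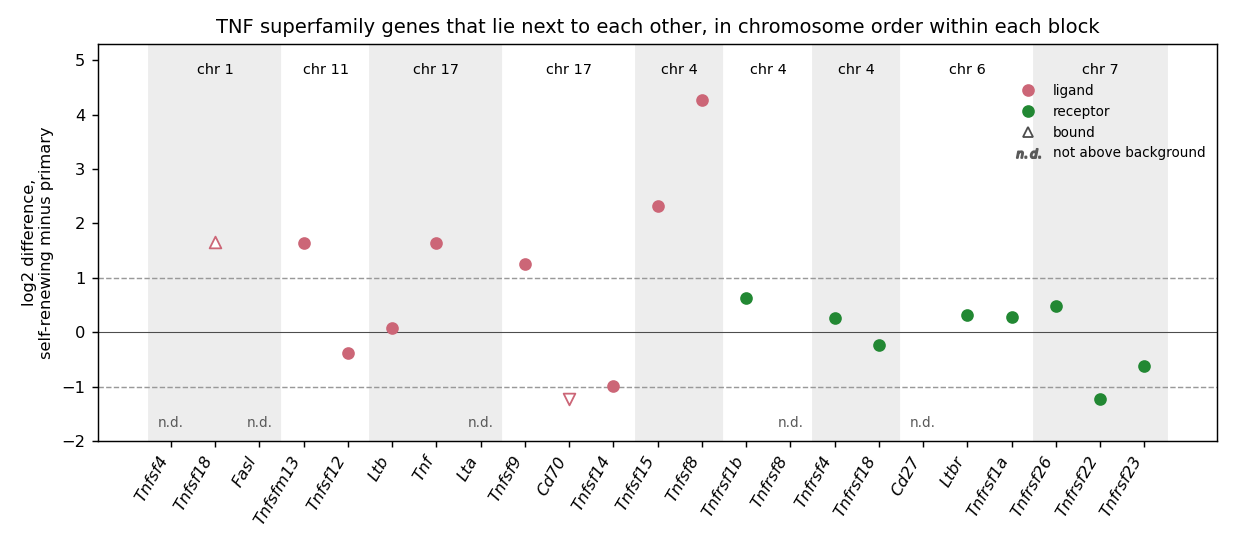
Log2 difference (y axis, self-renewing minus primary) of the 23 members that lie near another member, in chromosome order and shaded by block, with open triangles for bounds and n.d. for genes not well above background on either array. Tnfsf15 and Tnfsf8 on chromosome 4 are both higher, whereas Tnfsf9 is higher and Cd70 and Tnfsf14 beside it are lower.

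Many members lie beside each other in the genome, with 23 of the 40 in 9 blocks whose members were separated by at most 5 protein-coding genes. The plot of neighbouring genes shows that 1 block held both of the largest rises, Tnfsf15 and Tnfsf8, which adjoin on chromosome 4. Of the 5 genes on each side of that pair, Whrn, which encodes a scaffold protein of sensory hair cells, had a difference of 1.88. Tex48, Tmem268, Atp6v1g1, Akna, Trim32 and Tlr4 lay between 0.21 and 0.43, Astn2 at -0.21, and Tnc and Pappa were not well above background. In some other blocks members parted, as on chromosome 17 and chromosome 1, while Ltbr and Tnfrsf1a on chromosome 6 had like values of 0.32 and 0.29. On chromosome 17 Tnf was 3.13-fold higher beside Ltb at 0.08 and Lta, which was not well above background, and Tnfsf9 was 2.40-fold higher beside Cd70 and Tnfsf14, which were lower. On chromosome 1 Tnfsf18 had a signal on the self-renewing array between Tnfsf4 and Fasl, which had none well above background.

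The genes that carry the signal inside the cell had medians near 0. Of 25 TRAFs and receptor adaptors, 25 were measured, 0 passed 2-fold in either direction and the median difference was 0.14. Over all genes, 4.76% were at least 2-fold higher and 8.38% lower. Traf4 had the highest value, 0.92, and Traf3ip2 the lowest, -0.76. Of 15 kinases and their subunits, 1 was 2-fold higher (6.67%, beside 4.76% of all genes) and 0 were lower, with a median of 0.13. That gene was Ikbke, an IκB kinase-related kinase, with an intensity of 481 and 1230 and a difference of 1.31 ± 0.20, and 1.21 at its other probe.

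Of 8 genes of death signalling, 8 were measured, 0 were 2-fold higher and 1 was lower. Ripk3, the kinase that drives necroptosis, had 5610 and 2300, a difference of -1.33 ± 0.20 or 2.51-fold lower. Cflar (c-FLIP), which restrains caspase-8, gave 0.95, with its 4 probes between 0.88 and 1.62. Of 6 genes that cut ligands from the surface or control the cutting, 5 were measured on both arrays and 0 of these passed 2-fold. Over all genes, the shares were again 4.76% higher and 8.38% lower. Timp3, an inhibitor of such proteases, was detected in primary macrophages only, at 25 and 2.92, and was at least 1.95-fold lower. Rhbdf2 (iRhom2), which brings the TNF-releasing protease to the surface, gave 0.88.

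Of 9 genes tied to RANK signalling in osteoclasts, 8 were measured, 0 were 2-fold higher and 3 were lower (37.5%, beside 8.38% of all genes). Dcstamp, which is required for osteoclast fusion, had an intensity of 2720 and 33.7, a difference of -6.38 ± 0.24 or 83.1-fold lower, and its other probe gave -5.66. Acp5 (tartrate-resistant acid phosphatase) had 1130 and 48, a difference of -4.60 ± 0.22 or 24.2-fold lower. Atp6v0d2, a proton pump subunit, had 2040 and 471, a difference of -2.16 ± 0.20 or 4.46-fold lower, while Ctsk (cathepsin K) gave 0.85. The other 5 genes measured, Ctsk among them, lay within 2-fold. Of these, Nfatc1 gave 0.66 (0.75 at its other probe), Mmp9 0.11, Oscar -0.15 and Ocstamp -0.91. The falls in Dcstamp, Acp5 and Atp6v0d2 stood beside a RANK receptor signal that was not lower and a RANK ligand signal that was not detected on either array.

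**Figure D4:**
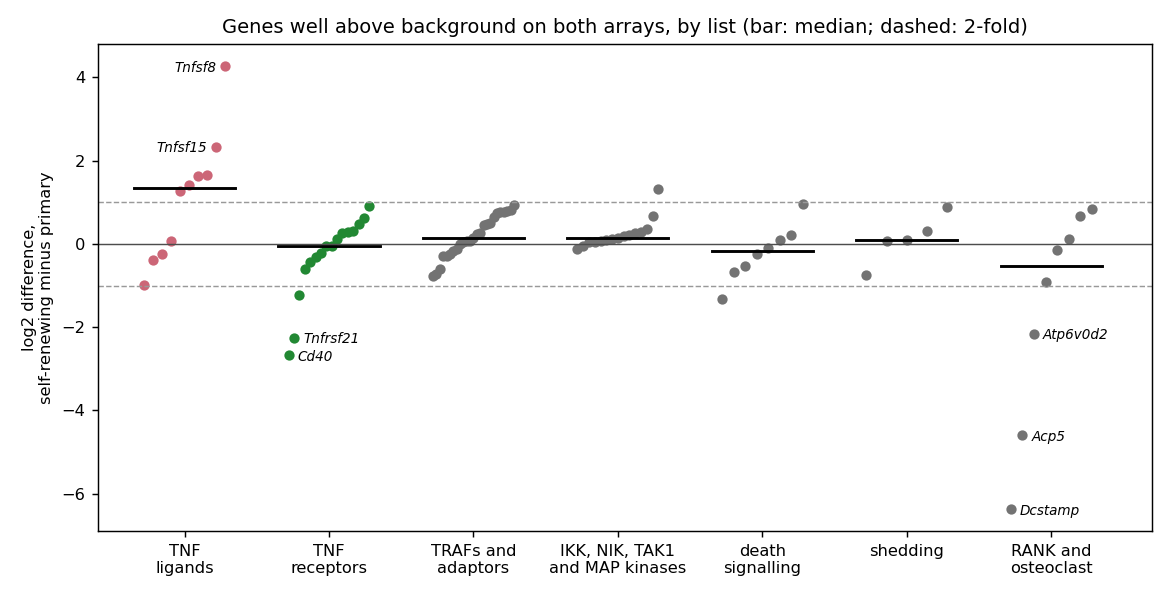
Log2 difference (y axis, self-renewing minus primary) of genes well above background on both arrays, by list, with a bar at the median of each list and dashed lines at 2-fold. The ligands have a median of 1.33, the receptors -0.05, the adaptors 0.14, the kinases 0.13 and the RANK and osteoclast genes -0.53, with Dcstamp lowest at -6.38.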

How the data were processed

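Both macrophage RNAs, primary and self-renewing, were each hybridised to 1 Agilent 1-colour mouse array. The authors deposited the scanner output of Feature Extraction 11.5.1.1 per the labels' processing notes, with an intensity per spot that the software had corrected for background, and a table of the same intensity values times 1 constant per array (1.07 and 1.19), whose choice is not given in the sources used here. From the deposited intensity, log2 was taken and the 75th percentile of the gene probes on that array subtracted. Control spots and 63 outlier spots per array were dropped first, and repeated spots averaged. Repeated spots varied by an SD of 0.04 and 0.05 log2.

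Accessions in a GRCm38.p6 gene table named 32988 of 56598 probes. The array was designed on an earlier assembly, so the table served for names, gene order and promoters. A gene was represented by its brightest probe among those well above background on at least 1 array. A bound set the bright array against a floor on the dim array, namely the lowest signal there among detected probes or, if higher, that of the dim probe. Thresholds were 2-fold and 5-fold. All members are accounted for, and from the pathway and marker lists genes past 2-fold, at most 8 a list, and others whose value stands beside a result are named. Values of list genes within 2-fold that are given were chosen after they were seen. The members and lists were chosen with earlier results of these data known. No test was made. The number of arrays limits the precision.

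Alternatives were normexp (offset 50, median signals), quantile normalization, 2 other centrings, the authors' scaled values, no filter, genes on both arrays only, other probe choices and other fold thresholds. Python 3.11.15, numpy 2.4.6, pandas 2.3.3, matplotlib 3.10.9, R 4.3.3 and limma 3.58.1 were used. Results for some genes are not reported here.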

Additional observations from a re-analysis of the deposited data

How the results depend on the processing

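No paired analysis was possible because there was 1 array for each group, and no array could be left out either. The count of members and of ligands at least 2-fold higher stayed between 5 and 9 under all alternatives, and no member past 2-fold changed direction. The count of members at least 2-fold lower, 5, was 2 with normexp, 3 with quantile normalization, 8 without a filter on background, 3 with genes on both arrays only and 2 at 3-fold. The count of lower ligands, 1, was 0 with normexp, quantile normalization, genes on both arrays only and 3-fold, and 2 with either centring on detected probes, without the filter and at 1.5-fold. The ligands' median, 1.33, was 0.11 without the filter, which brings in genes at background. The count of higher receptors, 0, was 1 with the authors' scaling and 2 at 1.5-fold, and that of lower receptors, 4, was 2 with normexp and at 3-fold. The receptors' median, -0.05, was 0.0003 with normexp, 0.14 with the authors' scaling and 0.0315 with the mean over probes. Apart from the filters and thresholds, which change the genes counted, the cause was not tested. Of 262 values of single members, 243 moved by less than 0.32, and 7 of the 12 members past 2-fold stayed there throughout the 9 alternatives that keep the threshold. Many of these values could not move so far. A gene with 1 probe, detected on both arrays, has the same value under the filters and probe choices. The other centrings and the authors' scaling shift all members alike, by less than 0.32. Both counts are therefore a weak check. Over all genes, the counts 739 higher and 1300 lower were 429 and 750 with normexp, 1192 and 2336 without a filter, 1690 and 2342 at 1.5-fold, and 346 and 756 at 3-fold, and 1035 and 1069 with the authors' scaling. They were 826 and 1201 with quantile normalization, and 588 and 782 with genes on both arrays only. Dim genes near background, such as Cd70, Tnfrsf17, Tnfsf18 and Tnfrsf13c, have bounds only and were measured close to the detection limit.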

Other observations

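A few members of the superfamily bear other names. Eda2r, the receptor of an ectodysplasin form, was detected, as well above background, in self-renewing macrophages only, with an intensity of 2.58 in the primary and 212 in the self-renewing macrophages, and was at least 17.4-fold higher. Its other probe gave a bound of 4.36-fold. Fas, the death receptor for Fas ligand, had 491 and 1280, a difference of 1.34 ± 0.20 or 2.53-fold, with its other probe at 0.97, although its ligand was not well above background on either array. Relt gave -0.16, and Eda and Edar were not well above background.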
